A study of Mus musculus with 21 samples.

Results

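The genes described here are 40 genes of the integrated stress response and the unfolded protein response, taken by symbol from the gene count table, which holds 48440 genes. They fall into 10 transcription factors and other regulators, 13 genes of amino acid synthesis, transport and charging that are known targets of the transcription factor ATF4, and 17 genes of the endoplasmic reticulum (ER). All 40 were matched to 1 Ensembl identifier each in the table, and all 40 passed the filter on low counts, as did 21237 genes in all. The study sequenced ribosome-depleted total RNA from 3 mouse cell lines in which the long noncoding RNA Esrp2-as was lowered or raised. M6 and M27H4 are labelled as lines from mammary tumours of C3(1)SV40 TAg mice, which carry the SV40 T antigen transgene, so both tumour lines share that transgene. 3T3-L1 is a preadipocyte line. M6 cells received LNA antisense gapmers against Esrp2-as (2 replicates) or are labelled as empty vector controls (2 replicates). M27H4 cells overexpressed Esrp2-as (3 replicates) or carried an empty vector (3 replicates), and 3T3-L1 cells overexpressed it (2 replicates) or carried an empty vector (2 replicates). All cells grew in DMEM with fetal calf serum. The preadipocyte origin is represented by 1 line, so a difference of 3T3-L1 from the tumour lines cannot be told apart from one of that line alone, and in bulk RNA a smaller share of expressing cells cannot be told apart from less RNA per cell.

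The integrated stress response starts with kinases that phosphorylate the translation factor eIF2, which slows translation in general and allows more translation of the Atf4 mRNA. ATF4 then activates genes for amino acid uptake and synthesis, for tRNA charging and, with its partner CHOP (encoded by Ddit3), for stress control and cell death. The unfolded protein response starts from the ER sensors PERK, IRE1 and ATF6, and through ATF6 and XBP1 it raises ER chaperones, disulfide isomerases and the machinery that removes misfolded proteins. PERK is also an eIF2 kinase, so both responses share ATF4.

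The promoter stretches below are shown because they hold the letters that ATF4 with its C/EBP partners, and the ER stress factors, are known to bind. RefSeq promoters of GRCm38.p6, 250 bases before to 50 after the start, were found for 35 of the 40 genes. On both strands they were searched for TGATGNAA, the core of the composite C/EBP-ATF element, and for the ER stress element, CCAAT and CCACG separated by 9 bases. ER stress element II, ATTGG and CCACG separated by 1 base, was searched as well. The C/EBP-ATF letters occurred in 7 of the 35 promoters (Asns, Atf3, Chac1, Herpud1, Nupr1, Pycr1 and Trib3), against 4.51% of the 27025 genes in the promoter table. The ER stress element occurred in 6 (Calr, Creld2, Dnajc3, Hsp90b1, Hspa5 and Pdia6), all of them ER chaperones or folding enzymes, against 0.137% of genes. Element II occurred in Herpud1 and Dnajb11, against 0.0444% of genes. No motif of one kind overlapped one of another kind in the windows printed here, and a match is a description of letters, not of a site in use. Below, the letters that matched are in capitals, in either orientation, within windows read 5′ to 3′ on the gene's strand. The windows with C/EBP-ATF letters lie at chr6:7693213-7693244 (minus strand) for Asns, chr11:120643832-120643863 (minus) for Pycr1, chr2:119351037-119351068 (plus) for Chac1 and chr7:126625561-126625592 (minus) for Nupr1. Herpud1 holds C/EBP-ATF letters at chr8:94386305-94386336 (plus) and element II at chr8:94386365-94386399 (plus). The windows with the ER stress element lie at chr2:34772013-34772055 (plus) for Hspa5, chr12:17266479-17266521 (plus) for Pdia6, chr14:118937815-118937857 (plus) for Dnajc3 and chr8:84847063-84847105 (minus) for Calr.
Asns: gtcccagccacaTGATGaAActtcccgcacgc
Pycr1: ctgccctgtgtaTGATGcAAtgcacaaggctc
Chac1: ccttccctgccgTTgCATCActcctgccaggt
Nupr1: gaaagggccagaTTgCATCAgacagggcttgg
Herpud1 C/EBP-ATF: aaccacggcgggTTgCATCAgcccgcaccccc
Herpud1 element II: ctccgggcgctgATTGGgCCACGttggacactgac
Hspa5: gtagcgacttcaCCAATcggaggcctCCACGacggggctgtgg
Pdia6: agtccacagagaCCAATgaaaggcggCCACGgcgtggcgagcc
Dnajc3: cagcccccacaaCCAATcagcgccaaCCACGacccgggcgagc
Calr: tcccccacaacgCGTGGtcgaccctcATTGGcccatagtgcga

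The 14 replicates held 34892461 to 328493417 counts each, after technical replicates were summed. Esrp2-as stood at 2.69 ± 0.379 CPM (counts normalized to library size; SD, n = 2) in M6 controls and 0.689 ± 0.229 (n = 2) in the knockdown, a log2 change of -1.92 that was not called (adjusted p = 0.363, edgeR quasi-likelihood test). It stood at 0.958 CPM in M27H4 controls and 47.7 with overexpression (adjusted p = 0.00152), and at 0.303 and 40.6 CPM in 3T3-L1 (0.00258). Markers of mammary epithelium summed to 3398.9 to 4635.3 CPM in M6 but only to 146.9 to 281.2 in M27H4, where control means were 4.31 CPM for Epcam, 134.3 for Cdh1 and 59.4 for Krt18, and to 17.4 to 24.2 in 3T3-L1. Markers of fibroblasts and preadipocytes summed to 28.3 to 60.4 CPM in M6, 787.1 to 1075.1 in M27H4 and 5798.9 to 7388.0 in 3T3-L1. In M27H4 controls Pdgfra, at 865.7 CPM, made up most of that sum, while Col1a1 (4.56), Col1a2 (25.2), Col3a1 (13.3) and Dlk1 (0.617) had means below those of 3T3-L1. M27H4, labelled a mammary tumour line, had lower control means than M6 for each epithelial marker and than 3T3-L1 for each fibroblast marker but Pdgfra. The 6 adipocyte markers summed to at most 4.27 CPM in any library. These marker levels move with every difference between lines below, and their part in those differences was not tested. The run codes in the column names also differ between lines: M6 replicate 1 of both groups ran only under a code that holds M6 alone, while replicate 2 ran partly under codes shared with the other lines. Those shared codes were not the same in the knockdown and the control of M6, which therefore differ in run codes.

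The clearest differences among the 40 genes were between lines. Control libraries of 3T3-L1 had far more RNA than those of M6 for Aldh1l2, Pycr1, Ddit3, Trib3, Chac1, Atf5 and Asns, while 9 of the 12 ER chaperones and folding enzymes were not called. In M27H4, 9 of the 13 amino acid genes were called higher than in M6, while 3 of the 10 regulators were called higher and 3 lower. Knockdown or overexpression of Esrp2-as gave no call among the 40. A gene is called where the adjusted p of edgeR's quasi-likelihood test (Benjamini-Hochberg over all 21237 genes) is under 0.05. Between M27H4 and M6 controls, 23 of the 40 were called, 18 higher and 5 lower in M27H4. The background was 30.2% of all genes, 15.2% higher and 15.0% lower, and 34.3% of genes with a mean of at least 10 CPM. Between 3T3-L1 and M6, 22 were called, 18 higher and 4 lower in 3T3-L1, beside 39.4% of all genes (20.5% higher, 18.9% lower, 43.0% of the abundant genes). Between 3T3-L1 and M27H4, 15 were called, 12 higher and 3 lower in 3T3-L1, which is 37.5% and lies near the background of 36.6% (18.9% higher, 17.8% lower, 41.6% of the abundant genes). With RLE factors in place of TMM the split in that comparison was 13 higher and 1 lower, and with DESeq2 14 and 2. These 3 comparisons share control libraries in pairs, so they are not independent of each other.

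**Figure D1:**
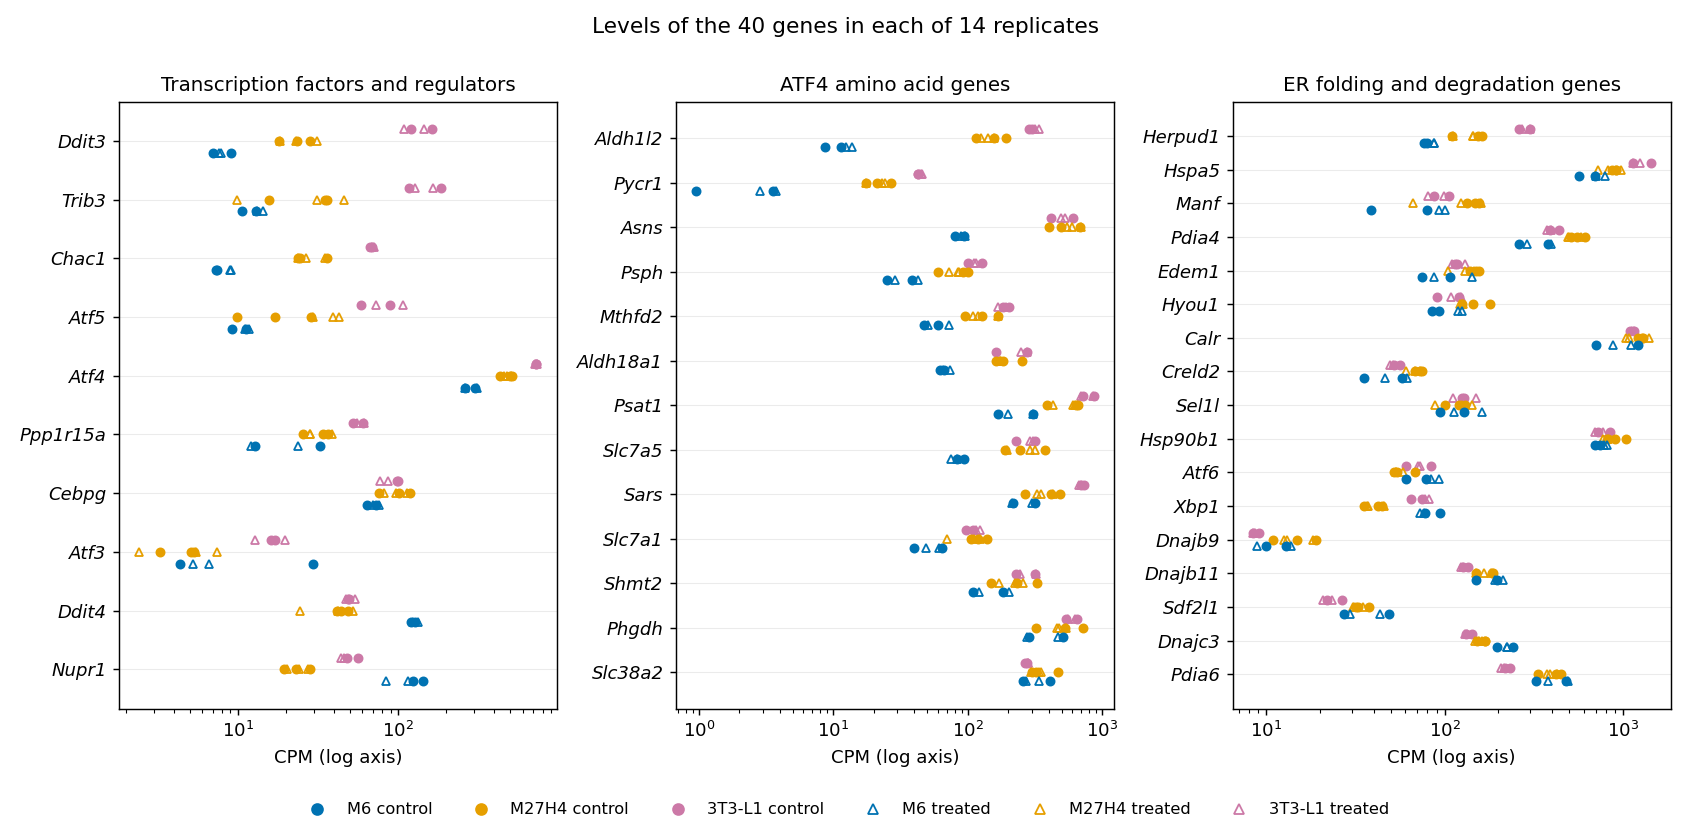
Level of each of the 40 genes in each of the 14 replicates, in CPM on a log axis, by gene group. Filled circles are control replicates and open triangles treated ones, coloured by line; within a gene group, genes are ordered by the ratio of 3T3-L1 to M6 controls. Ddit3, Trib3, Chac1 and Aldh1l2 show 3T3-L1 to the right of both tumour lines, while treated and control replicates of a line lie close together for most genes.

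Among the regulators, Atf4 (chr15:80255184-80257541, plus strand, GRCm38), the main transcription factor of the integrated stress response, was called higher at each step from M6 to M27H4 to 3T3-L1. It stood at 262.8 and 303.2 CPM in M6 controls, 431.6, 515.3 and 497.7 in M27H4 controls, and 729.4 and 725.3 in 3T3-L1 controls. The 3 lines did not overlap. The log2 difference was 0.77 ± 0.16 (SE) between M27H4 and M6 (adjusted p = 0.00264), 1.36 ± 0.18 between 3T3-L1 and M6 (4.27e-05) and 0.60 ± 0.16 between 3T3-L1 and M27H4 (0.00922).

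Ddit3 (chr10:127290774-127296288, plus strand), which encodes the CHOP transcription factor, showed a wider range. Its values were 9.03 and 7.01 CPM in M6 controls, 18, 28.1 and 23.3 in M27H4 controls, and 120.4 and 162.8 in 3T3-L1 controls. The lines were again apart, with 3T3-L1 far above the other lines. The log2 difference from M6 was 1.53 ± 0.27 in M27H4 (adjusted p = 0.000672) and 4.15 ± 0.32 in 3T3-L1 (3.64e-07), and 3T3-L1 exceeded M27H4 by 2.62 ± 0.26 (4.26e-06). Of its exonic bases, 3.97% also lie in exons of Mars on the opposite strand.

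Trib3 encodes a pseudokinase that is induced by ATF4 and CHOP and restrains them. It measured 10.6 and 12.9 CPM in M6 controls, 15.6, 36.2 and 35 in M27H4 controls and 117.4 and 184.4 in 3T3-L1 controls. The gap to 3T3-L1 was called from M6 (3.68 ± 0.63, adjusted p = 0.000699) and from M27H4 (2.38 ± 0.52, 0.0037), while the difference between the tumour lines was not called (1.30 ± 0.54, 0.096). That difference was called without M27H4 control replicate 1 (1.60, 0.0338). DESeq2, a fit of only the groups compared and a fit on single columns with a run code term called it as well. Chac1, a glutathione-degrading enzyme downstream of ATF4, had narrow groups at 7.27 and 7.42 CPM in M6 controls, 23.7, 35.8 and 24.6 in M27H4 controls and 67.2 and 69 in 3T3-L1 controls. All 3 differences were called for Chac1, at 1.93 ± 0.23 (2.12e-05), 3.21 ± 0.25 (4.02e-07) and 1.28 ± 0.21 (0.000272) in the order used above for Atf4.

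Atf5, a relative of ATF4 that acts in mitochondrial stress, stood at 9.17 and 11.2 CPM in M6 controls, 28.8, 17 and 9.89 in M27H4 controls and 58.5 and 89.4 in 3T3-L1 controls. Only the differences from 3T3-L1 were called, at 2.86 ± 0.42 against M6 (adjusted p = 0.00011) and 1.99 ± 0.35 against M27H4 (0.000573). The difference between M27H4 and M6 was 0.86 (0.0957), was called without M27H4 control replicate 3 (1.16, 0.0141) and was 0.40 (0.376) without replicate 1. The deposited value of Atf5 was unsteady: the same 3T3-L1 control library read 26.1 CPM in its first technical replicate and 87.3 in its second. This 3.34-fold gap between 2 runs of a library was the largest among the 40 genes, 37 of which stayed under 1.4-fold in all 5 libraries run that way. Manf (1.93-fold) and Nupr1 (1.66-fold) were the other exceptions.

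Nupr1 and Ddit4 went the other way. Nupr1, a small stress-induced chromatin protein, was at 142.8 and 123.5 CPM in M6 controls, 28.3, 19.5 and 23.2 in M27H4 controls and 56.3 and 48 in 3T3-L1 controls. M6 was highest and M27H4 lowest, with no overlap. The log2 difference from M6 was -2.49 ± 0.21 in M27H4 (adjusted p = 1.08e-06) and -1.35 ± 0.23 in 3T3-L1 (0.00036), and 3T3-L1 exceeded M27H4 by 1.14 ± 0.20 (0.000599). Ddit4, an inhibitor of mTORC1, was at 120.9 and 127.2 CPM in M6 controls against 41.5 to 49.1 in the controls of the other lines. Its differences from M6 were -1.47 ± 0.24 in M27H4 (0.000333) and -1.34 ± 0.27 in 3T3-L1 (0.00129), while M27H4 and 3T3-L1 differed by 0.12 with a 95% interval of -0.39 to 0.64.

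Atf3, a stress-induced repressor, rested on 1 library in M6. Its M6 controls read 29.4 CPM in replicate 1 and 4.33 in replicate 2, beside 5.33, 5.13 and 3.27 in M27H4 controls and 16.1 and 17.1 in 3T3-L1 controls. The call of lower Atf3 in M27H4 than in M6 (-1.88 ± 0.62, adjusted p = 0.0402) was at 0.08 without M6 control replicate 1, and at 0.25 within the run codes that hold controls of all 3 lines. It was also lost without any 1 of the M27H4 controls (adjusted p = 0.0638 to 0.121) and with the replicate block (-1.33, 0.112), a fit with the replicate number as a term. Between 3T3-L1 and M6 Atf3 was not called, but was without M6 control replicate 1 (1.95, 0.0212). Between 3T3-L1 and M27H4 Atf3 was called at 1.86 ± 0.62 (0.0354), and leaving out any of the 5 control libraries ended that call at values of 1.66 to 1.98. Ppp1r15a, the phosphatase subunit GADD34 that reverses eIF2 phosphorylation, also split in M6 controls, at 32.6 and 12.8 CPM, and was at 25.5 to 36.3 in M27H4 controls and 52 and 60.7 in 3T3-L1 controls. It was called higher in 3T3-L1 than in M6 (1.32 ± 0.39, 0.0163), but not without either 3T3-L1 control (1.36, 0.063, and 1.16, 0.118) nor without M6 control replicate 2 (0.81, 0.105). With the replicate block it was called higher in M27H4 than in M6 (0.72, 0.0366) and in 3T3-L1 than in M27H4 (1.04, 0.00374). Cebpg, a dimer partner of ATF4, ranged from 64.4 to 119.2 CPM over all 14 libraries. The main fit called it in none of the 3 comparisons. The replicate block called it higher in M27H4 than in M6 (0.45, 0.0412). DESeq2 and another low-count filter called Cebpg between M27H4 and M6 and between 3T3-L1 and M6. With RLE factors it was called between 3T3-L1 and M6.

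Against M6, the calls among the amino acid genes all went one way: 9 of 13 were higher in M27H4 and 10 of 13 in 3T3-L1, and none was lower. Of all genes, 15.2% were called higher in M27H4 and 20.5% in 3T3-L1. The median log2 difference of the 13 genes from M6 was 1.29 in M27H4 and 1.75 in 3T3-L1, beside 0.02 and 0.05 over all genes tested. Between 3T3-L1 and M27H4 edgeR called only Aldh1l2 and Sars, both higher in 3T3-L1 (15.4%, beside 36.6% of all genes). The median of the 13 was 0.21. Pycr1 was also called there by DESeq2, by limma voom and with RLE factors, and Mthfd2 by DESeq2. Both were called with the replicate block. Among the 10 regulators 7 were called higher and none lower between 3T3-L1 and M27H4, with a median of 1.21. Of all genes, 18.9% were called higher and 17.8% lower in that comparison.

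Asns (chr6:7675169-7693254, minus strand), asparagine synthetase, stood at 80.5 and 94.5 CPM in M6 controls, 402.5, 686.6 and 494.7 in M27H4 controls, and 605.9 and 415.2 in 3T3-L1 controls. M6 was the low line, and the ranges of M27H4 and 3T3-L1 overlapped. Asns was higher than in M6 by 2.59 ± 0.26 in M27H4 (adjusted p = 5.34e-06) and by 2.55 ± 0.27 in 3T3-L1 (6.72e-06). Between 3T3-L1 and M27H4 it differed by -0.05, with a 95% interval of -0.55 to 0.45.

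Aldh1l2 (chr10:83487450-83534140, minus strand), a mitochondrial enzyme that makes NADPH from formyl-tetrahydrofolate, read 11.5 and 8.71 CPM in M6 controls, 115.0, 192.8 and 157.2 in M27H4 controls, and 299.7 and 283.6 in 3T3-L1 controls. The log2 differences were 3.94 ± 0.25 between M27H4 and M6 (adjusted p = 1.61e-07), 4.85 ± 0.27 between 3T3-L1 and M6 (2.92e-08) and 0.91 ± 0.21 between 3T3-L1 and M27H4 (0.00357). Exons of D10Wsu102e on the opposite strand cover 14.1% of its exonic bases.

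Pycr1, which completes proline synthesis, read 0.952 and 3.56 CPM in M6 controls, 17.4, 26.9 and 21.3 in M27H4 controls, and 42.7 and 42.5 in 3T3-L1 controls. The groups were apart, and the log2 difference from M6 was 3.23 ± 0.43 in M27H4 (adjusted p = 6.83e-05) and 4.19 ± 0.47 in 3T3-L1 (1.08e-05). Its size rested on single M6 controls: without M6 control replicate 1 the values were 2.62 and 3.59, without replicate 2 they were 4.54 and 5.50, and all remained called. Within the run codes that hold controls of all 3 lines they were 2.90 and 3.65. Aldh18a1, the first enzyme of that route, was at 61.7 and 66.2 CPM in M6 controls and between 163.2 and 275.9 in the controls of the other lines. Its differences from M6 were 1.64 ± 0.24 (0.000144) in M27H4 and 1.78 ± 0.25 (9.49e-05) in 3T3-L1. Mthfd2, a mitochondrial folate enzyme, was at 47.4 and 60.0 CPM in M6, 95.4 to 169.4 in M27H4 and 201.1 and 182.5 in 3T3-L1 controls. The difference from M6 was 1.29 ± 0.27 (0.00246) and 1.84 ± 0.29 (0.000226).

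Of the 3 enzymes of serine synthesis, Psat1 and Psph were called against M6. Phgdh, the first of the route, overlapped between lines, at 287.1 and 514.8 CPM in M6 controls, 323.3, 724.7 and 527.6 in M27H4 controls and 654.3 and 537.6 in 3T3-L1 controls, and was called in no comparison, with differences from M6 of 0.39 (95% interval -0.32 to 1.10) in M27H4 and 0.57 (-0.20 to 1.35) in 3T3-L1. Psat1, the second, was at 167.3 and 305.1, 387.8, 633.6 and 665.7, and 866.7 and 719.3 CPM in the same order. It was higher than in M6 by 1.25 ± 0.32 in M27H4 (adjusted p = 0.00843; 0.88, 0.0815, without M6 control replicate 1) and 1.75 ± 0.34 in 3T3-L1 (0.00116). Psph, the last, was higher by 1.39 ± 0.27 (0.0013) and 1.84 ± 0.29 (0.000203). Shmt2, which turns serine into glycine in mitochondria, was not called, with differences of 0.68 (0.162) and 0.90 (0.074), but it was with the replicate block (0.65, 0.00451, and 0.70, 0.00508). Between 3T3-L1 and M6 it was also called by DESeq2 and with RLE factors.

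Among the transporters, Slc7a5, which carries large neutral amino acids, was at 82.8 and 94.3 CPM in M6 controls, 188.9, 378.0 and 245.7 in M27H4 controls and 316.4 and 228.7 in 3T3-L1 controls. Its differences from M6 were 1.61 ± 0.29 (adjusted p = 0.000827) and 1.62 ± 0.31 (0.000961). Slc7a1, a carrier of cationic amino acids, was higher by 1.23 ± 0.26 (0.00283) and 0.99 ± 0.28 (0.0121), the second of which was lost without 3T3-L1 control replicate 1 (0.84, 0.0968) or M6 control replicate 2 (0.70, 0.105). Slc38a2, a carrier of small neutral amino acids, was called in no comparison, and its control values lay between 259.7 and 472.6 CPM in all 3 lines. Sars, the seryl-tRNA synthetase, was at 216.1 and 314.4 CPM in M6, 264.7, 488.7 and 417.3 in M27H4 and 698.1 and 732.0 in 3T3-L1 controls. It was called higher in 3T3-L1 than in M6 (1.43 ± 0.29, 0.00137) and than in M27H4 (0.87 ± 0.25, 0.0157; 0.86, 0.0592, without 3T3-L1 control replicate 2). With the replicate block it was also called higher in M27H4 than in M6 (0.49, 0.035).

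**Figure D2:**
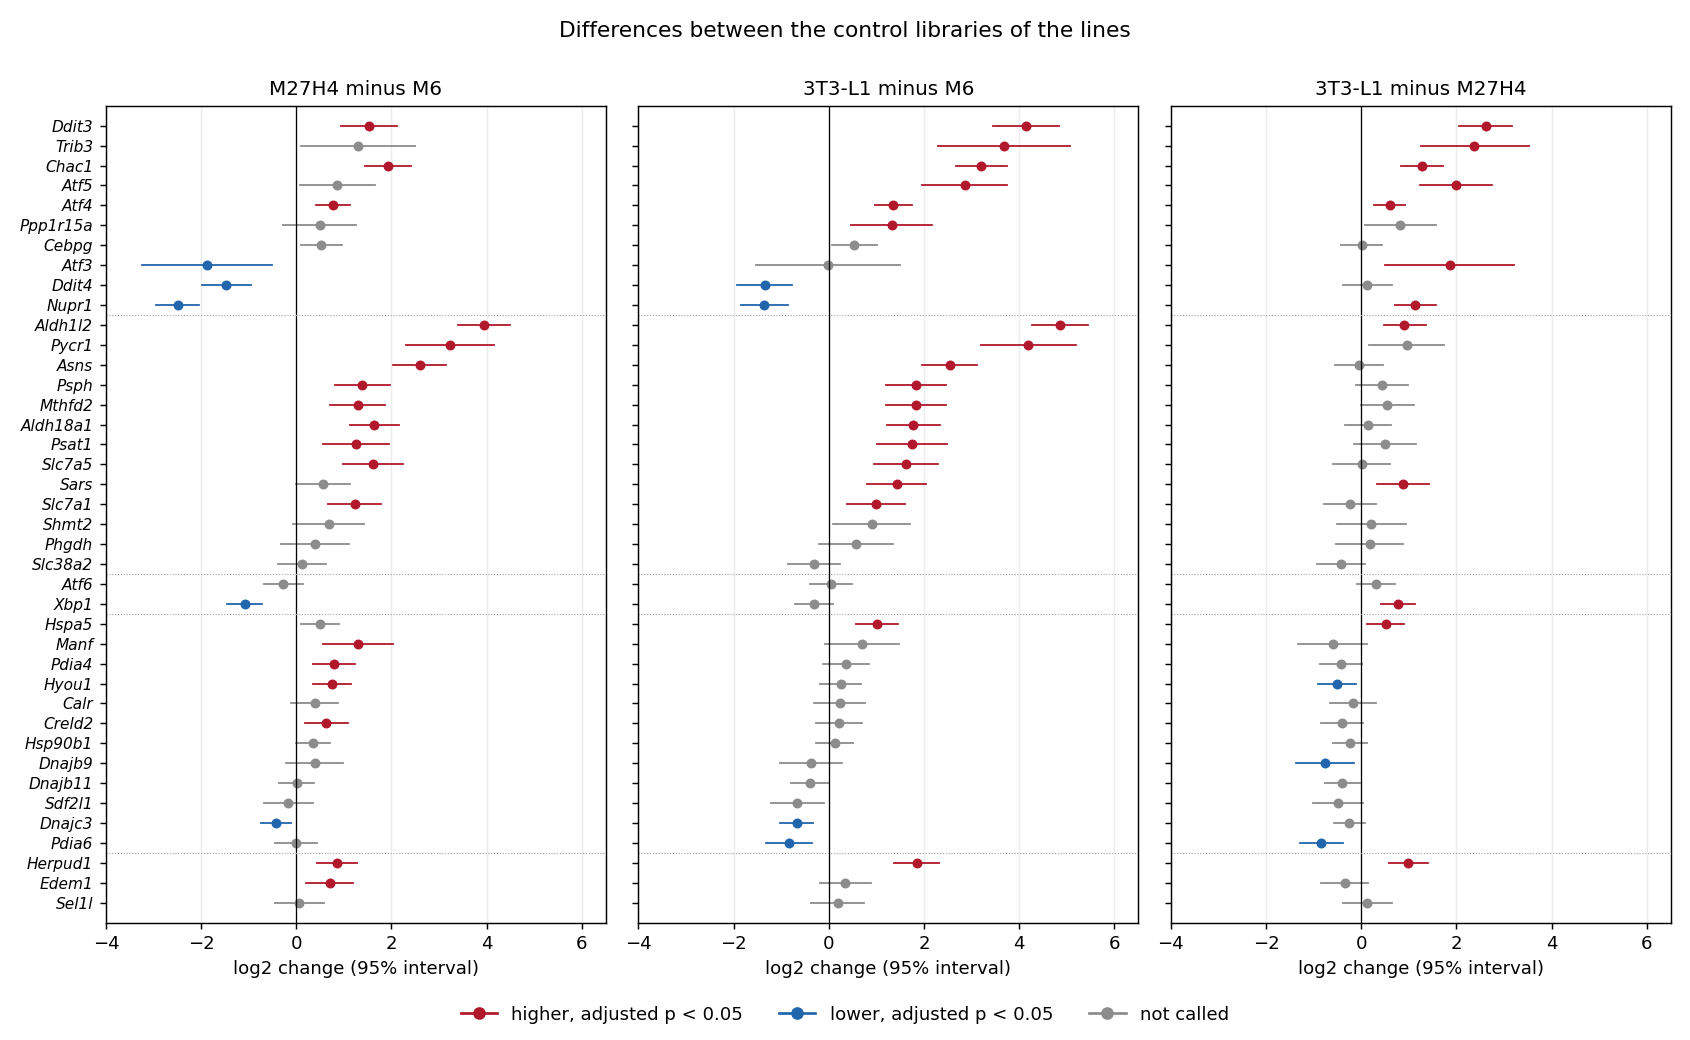
Log2 difference between the control libraries of each pair of lines for the 40 genes, with 95% intervals from edgeR's quasi-likelihood fit. Red marks genes called higher in the first-named line, blue genes called lower and grey genes not called; dotted lines part regulators, amino acid genes, ER sensors, chaperones and degradation genes. Aldh1l2 reaches 4.85 and Ddit3 4.15 between 3T3-L1 and M6, while the chaperones lie between -0.84 and 1.02 in that panel.

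The ER genes were called in both directions. Against M6, 6 of 17 were called higher and 2 lower in M27H4 (47.1%, beside 30.2% of all genes; median 0.39), and 2 higher and 2 lower in 3T3-L1 (23.5%, beside 39.4%; median 0.19). Between 3T3-L1 and M27H4, 3 were called higher and 3 lower in 3T3-L1 (35.3%, beside 36.6%), with a median of -0.35. The summed level of the 17 genes in controls was 3639.7 and 4566.5 CPM in M6, 5263.8, 5381.8 and 5229.2 in M27H4 and 5349.3 and 4748.9 in 3T3-L1. The 13 amino acid genes summed to 1565.5 and 1984.0 CPM in M6, 2744.7, 4418.8 and 3607.0 in M27H4 and 4794.7 and 3996.3 in 3T3-L1. For the 10 regulators the sums were 689.0 and 682.1, 712.1, 833.5 and 805.8, and 1365.0 and 1505.6 CPM. M6 controls were thus lowest without overlap for all 3 sums, and 3T3-L1 controls were highest without overlap for the regulators.

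**Figure D3:**
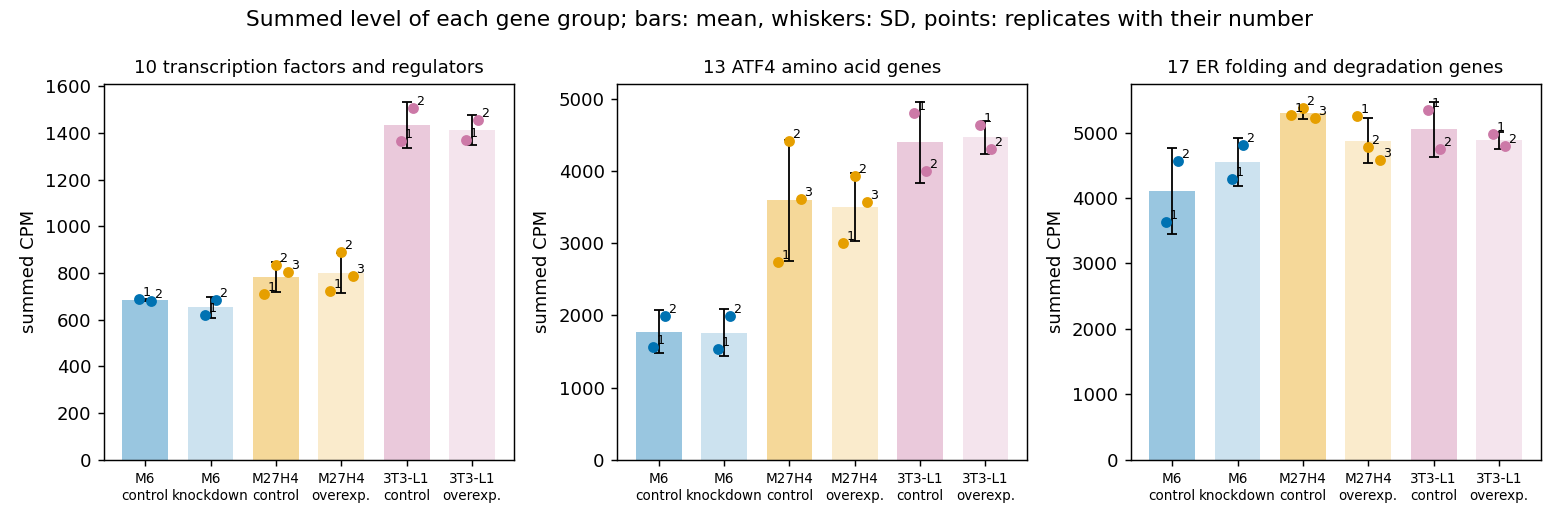
Summed CPM of the 10 regulators, the 13 amino acid genes and the 17 ER genes in each of the 6 groups; bars are means, whiskers SD and points single replicates with their number. Regulators in 3T3-L1 lie at 1365.0 CPM or more, above the highest tumour-line value of 892.2, while the ER sums of all lines lie within 3639.7 to 5381.8.

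Hspa5 (chr2:34771970-34777547, plus strand), the ER chaperone BiP, was at 566.1 and 695.4 CPM in M6 controls, 910.6, 906.7 and 861.0 in M27H4 controls and 1425.2 and 1134.1 in 3T3-L1 controls. The 3 ranges were in order without overlap. Hspa5 was called higher in 3T3-L1 than in M6 (1.02 ± 0.20, adjusted p = 0.00126) and than in M27H4 (0.52 ± 0.18, 0.0385), and the step from M6 to M27H4 just missed the call (0.50 ± 0.19, 0.0576) and was called with the replicate block (0.57, 0.0127). DESeq2 and limma voom also called the step from M6 to M27H4. The call between 3T3-L1 and M27H4 was lost without 3T3-L1 control replicate 1 (0.35, 0.268) and without any 1 of the M27H4 controls (0.49 to 0.54). Herpud1, an ER membrane protein of the degradation machinery, showed the same order at 76.8 and 79.7, 109.3, 161.8 and 153.6, and 261.2 and 301.1 CPM. All 3 of its differences were called, at 0.86 ± 0.20 (0.00455), 1.85 ± 0.22 (1.72e-05) and 0.99 ± 0.19 (0.00105).

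Other chaperones and folding enzymes were lower in 3T3-L1. Pdia6, a disulfide isomerase, was at 323.4 and 479.9 CPM in M6, 333.7, 422.4 and 448.7 in M27H4 and 232.2 and 217.7 in 3T3-L1 controls. It was lower in 3T3-L1 by 0.84 on the log2 scale (log2 difference -0.84) against both M6 (adjusted p = 0.0089; -0.51, 0.112, without M6 control replicate 2) and M27H4 (0.00625). Dnajc3, a co-chaperone that also inhibits eIF2 kinases, was at 240.6 and 196.5 CPM in M6 controls and at 132.0 to 168.3 in the controls of the other lines. The log2 difference from M6 was -0.43 ± 0.15 (0.0409) in M27H4, a call lost without any 1 of the M27H4 controls or M6 control replicate 1 (-0.28, 0.275), and -0.67 ± 0.16 (0.00481) in 3T3-L1. Dnajb9 and Hyou1, a co-chaperone and a large chaperone of BiP, were lower in 3T3-L1 than in M27H4 by calls close to the threshold (-0.77, 0.0462, and -0.50, 0.0477). Without 3T3-L1 control replicate 2 these were -0.69 (0.243) and -0.29 (0.404), and other left-out libraries ended them too. Both calls were also lost with RLE factors and with DESeq2. Dnajb9 was at -0.18 within the run codes that hold controls of all 3 lines. With the replicate block Dnajb11, another co-chaperone of BiP, was called lower in 3T3-L1 than in M6 (-0.51, 0.0128) and M27H4 (-0.48, 0.009), Pdia4 lower than in M27H4 (-0.48, 0.04) and Sdf2l1 lower than in M6 (-0.79, 0.0254). DESeq2 also called Dnajb11 in both comparisons and Sdf2l1 against M6. Sdf2l1 was called there by limma voom and with RLE factors too.

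Against M6, M27H4 had more Pdia4 (0.80 ± 0.21, adjusted p = 0.00913), Hyou1 (0.75 ± 0.19, 0.00712), Creld2 (0.63 ± 0.21, 0.0342), Edem1 (0.70 ± 0.23, 0.0345) and Manf (1.30 ± 0.34, 0.0109). Manf, a secreted ER stress protein, read 38.7 and 79.8 CPM in M6 controls and 156.4, 148.5 and 133.0 in M27H4 controls. Without M6 control replicate 1 none of these 5 genes was called in that comparison: Pdia4 was at 0.55 (0.0746), Hyou1 at 0.69 (0.0561), Creld2 at 0.32 (0.274), Edem1 at 0.47 (0.224) and Manf at 0.87 (0.122). The calls of Creld2 and Edem1 were also lost without M27H4 control replicate 2 or 3, and that of Creld2 without replicate 1 (0.60 to 0.67 and 0.67 to 0.69). The deposited Manf value of M6 control replicate 2 was 110.6, 64.1 and 67.2 CPM in its 3 technical replicates. The first carries another library code than the other two, which share one and lie close together. Without that replicate the Manf difference was 1.93 (0.0031). Calr, which has the highest level per kilobase of exon among the 40 genes in each line (333.6 in M6, 438.4 in M27H4 and 390.3 CPM per kb in 3T3-L1 controls), was called in no comparison, except without M6 control replicate 2 (0.85, 0.0146, in M27H4 and 0.68, 0.038, in 3T3-L1 against M6). Hsp90b1 and Sel1l were not called either.

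Of the ER transcription factors, Xbp1 (chr11:5520659-5525893, plus strand) was lowest in M27H4, at 44.4, 42.3 and 35.2 CPM, beside 94.5 and 77.4 in M6 controls and 74.6 and 64.3 in 3T3-L1 controls. It was lower in M27H4 than in M6 (-1.08 ± 0.17, adjusted p = 0.000264) and higher in 3T3-L1 than in M27H4 (0.77 ± 0.17, 0.0029). Between 3T3-L1 and M6 the difference was -0.31 (0.222). IRE1 activates XBP1 by splicing its mRNA, and gene counts do not separate the spliced form. Atf6 lay between 51.9 and 83.4 CPM in all control libraries and was not called.

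Control ranges in the order 3T3-L1 over M27H4 over M6 with no overlap were found for 10 of the 40 genes, beside 5.39% of all genes tested. They were Atf4, Chac1, Ddit3 and Trib3 among the regulators, Aldh1l2, Mthfd2, Psat1 and Pycr1 among the amino acid genes, and Hspa5 and Herpud1 among the ER genes. Among the 7 genes with C/EBP-ATF letters in the promoter, log2 differences between 3T3-L1 and M6 ran from -1.35 (Nupr1) to 4.19 (Pycr1), with 6 called. In the 6 genes with the ER stress element they ran from -0.84 (Pdia6) to 1.02 (Hspa5), with 3 called. Over all genes 39.4% were called in that comparison, and 43.0% of the abundant genes, so 3 of 6 lies near that share. The same letters thus occurred in genes that were higher and in genes that were lower.

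Within the 2 run codes that hold 1 control library of each line, 22 of the 23 genes called between M27H4 and M6 had the same sign, Atf3 being the exception. The same was true of 22 of 22 between 3T3-L1 and M6 and of 15 of 15 between 3T3-L1 and M27H4. These libraries also entered the fit that gave the calls, so most signs were bound to be the same. The counts are therefore no separate check, and 1 library a line holds no spread between replicates. The amino acid genes had medians of 1.51 and 1.85 against M6 within these run codes. Replicates of a line differed in these genes: they were lower in replicate 1 than in replicate 2 for 12 of 13 in M27H4 controls (median -0.75) and 13 of 13 with overexpression (-0.38). In M6 the count was 10 of 13 in controls (-0.34) and in the knockdown (-0.38). The medians over all genes were -0.11 and -0.07 in M27H4 and -0.15 and -0.16 in M6. In 3T3-L1, replicate 1 was the lower one for 1 of 13 in controls (0.27) and 5 of 13 with overexpression (0.08). M27H4 replicates 1 ran under a code of their own and M6 replicates 1 under a code shared only with M6 replicates 2, and the part of the run code in these gaps was not tested.

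Neither lowering nor raising Esrp2-as gave a called change in any of the 40 genes. edgeR's quasi-likelihood test called 0 of 40 in the M6 knockdown, where 0.137% of all genes were called, 0 of 40 with overexpression in M27H4 (0.00942% of all genes) and 0 of 40 in 3T3-L1 (0.00471%). DESeq2 and limma voom also called 0 in each. At an unadjusted p under 0.05 there was 1 gene in the M6 knockdown (Hyou1, beside 6.27% of all genes), 1 in M27H4 (Atf5, beside 1.69%) and 0 in 3T3-L1 (beside 0.946%). The difference between the overexpression effects in 3T3-L1 and M27H4 was called by edgeR for 0 of the 40 (0.00471% of all genes), with 0 at an unadjusted p under 0.05. The median log2 change over the 40 genes was 0.10, -0.06 and -0.01 in M6, M27H4 and 3T3-L1, beside -0.03, -0.03 and 0.00 over all genes.

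In the M6 knockdown Hyou1 was at 125.6 and 118.1 CPM, above the controls at 84.3 and 92.7, with a log2 change of 0.46 ± 0.20 (unadjusted p = 0.0379, adjusted p = 0.731 in edgeR). It was called at 0.53 (adjusted p = 0.0244) in a fit that took every column as a library with the run code as a term, so that technical replicates count as if they were independent. Atf3 read 6.58 and 5.27 CPM in the knockdown beside controls at 29.4 and 4.33, and its log2 change of -1.50 (adjusted p = 0.82) became 0.53 without control replicate 1. Manf, at 99.8 and 92.3 CPM beside 38.7 and 79.8, had a change of 0.70 (0.882), which was 0.34 (0.884) without that replicate and 1.32 (0.272) without control replicate 2. Nupr1 was at 84.7 and 114.9 CPM beside 142.8 and 123.5 (-0.42, 0.903), and Atf6 at 93.3 and 83.5 beside 78.6 and 60.9 (0.34, 0.951). Knockdown replicate 2 sums 2 technical replicates with different library codes. They read 146.5 and 84.3 CPM for Nupr1, 129.2 and 59.5 for Manf and 96.7 and 125.0 for Hyou1. Under the run code that replicate 2 shares between knockdown and control, Nupr1 read 146.5 CPM in the knockdown and 113.9 in the control.

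Of the central genes of the response, none was called in M6. Atf4 read 260.3 and 310.2 CPM in the knockdown, with a change of 0.01 and a 95% interval of -0.36 to 0.39. Ddit3 read 7.66 and 7.89 CPM (-0.04, interval -0.65 to 0.57), Asns 89.3 and 95.8 (0.08, -0.47 to 0.63), Hspa5 703.2 and 786.8 (0.24, -0.19 to 0.67) and Xbp1 76.7 and 72.7 (-0.20, -0.61 to 0.21). The knockdown range lay above the control range for Hspa5 and below it for Xbp1, while Atf4, Ddit3 and Asns overlapped. Of the 17 ER genes 14 had a positive value, beside 9314 of 21237 genes in all. With overexpression 1 of the 17 was positive in M27H4 (9327 of all genes) and 6 in 3T3-L1 (10533). The M6 controls behind that count summed to 3639.7 CPM over the 17 genes in replicate 1 and 4566.5 in replicate 2. With 2 replicates a group in M6, changes within the intervals above could not be told from 0.

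In M27H4, Atf5 was at 29.5, 42.7 and 39.2 CPM with overexpression and at 28.8, 17 and 9.89 in controls. The ranges did not overlap, with replicate 1 nearly equal in both groups, and the log2 change was 1.00 ± 0.32 (95% interval 0.31 to 1.69, unadjusted p = 0.00791, adjusted p = 1.0 in edgeR). Runs of the same library read 19.1 and 13.6 CPM in control replicate 2 and 41.9 and 43.7 in overexpression replicate 2, and the part of such gaps in this change was not tested. Manf was at 159.8, 124.0 and 66.5 CPM beside 156.4, 148.5 and 133.0 (-0.32), and the runs of the second overexpression library read 167.3 and 86.6. Hyou1 (-0.26), Slc7a1 (-0.26) and Hsp90b1 (-0.21) had the next smallest p, all at an adjusted p of 1.0. Atf4 was at 460.1, 510.8 and 481.1 CPM with overexpression (0.01, interval -0.30 to 0.31), and the values were 0.07 for Ddit3 (-0.42 to 0.56), 0.22 for Asns (-0.22 to 0.67), -0.09 for Hspa5 (-0.44 to 0.27) and -0.03 for Xbp1 (-0.37 to 0.30).

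In 3T3-L1, overexpression left Atf4 at 737.9 and 717.7 CPM beside 729.4 and 725.3 in controls (0.00, interval -0.38 to 0.38). Ddit3 was at 108.4 and 145.6 CPM beside 120.4 and 162.8 (-0.16, -0.76 to 0.44), and Asns at 494.8 and 529.2 beside 605.9 and 415.2 (0.00, -0.54 to 0.55). Hspa5 had a value of -0.11 (-0.54 to 0.33) and Xbp1 of 0.19 (-0.21 to 0.60). The smallest p values belonged to Cebpg, at 87.2 and 77 CPM beside 98.5 and 100.3 (-0.28), Aldh18a1 (0.26), Xbp1, Nupr1 (-0.21) and Slc7a1 (0.21). Each had an adjusted p of 1.0.

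**Figure D4:**
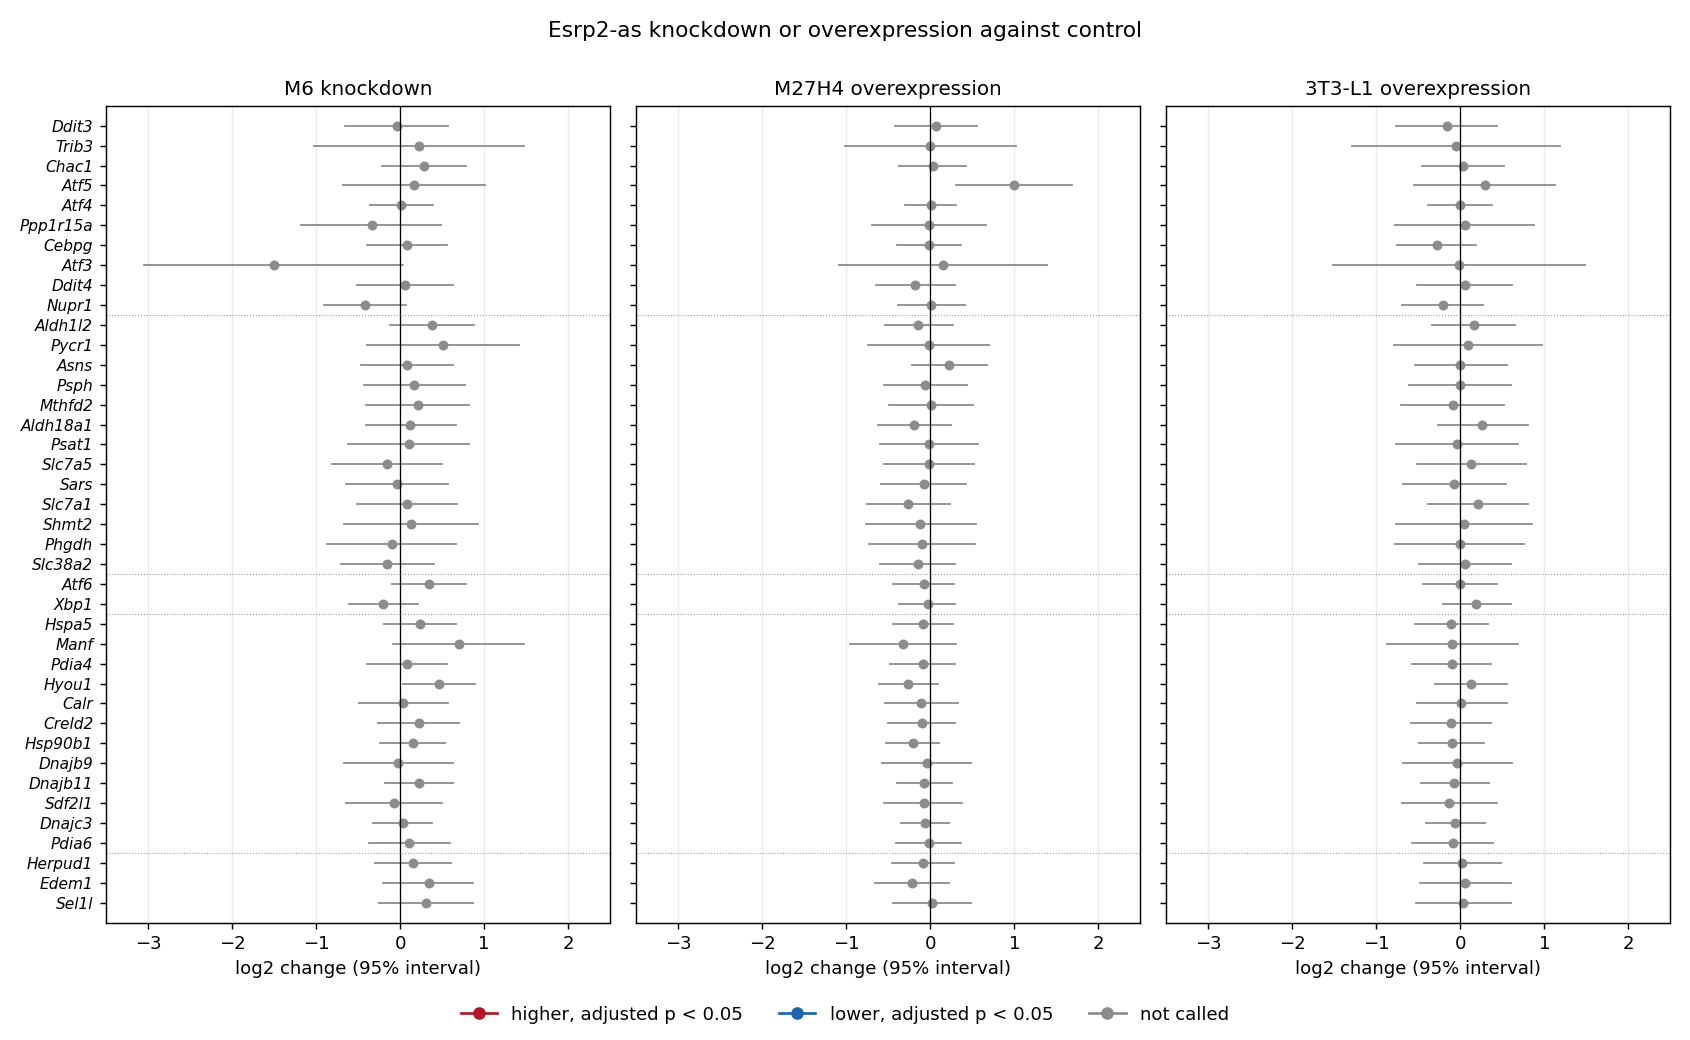
Log2 change of the 40 genes after Esrp2-as knockdown in M6 and overexpression in M27H4 and 3T3-L1, with 95% intervals from edgeR's quasi-likelihood fit; grey marks genes not called. All 40 are grey in each panel; the values farthest from 0 are Atf3 at -1.50 in M6 and Atf5 at 1.00 in M27H4.

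Another 91 genes of the same pathways were measured and tested. Against M6, 28 were called higher and 6 lower in M27H4 (37.4%, near the 30.2% of all genes and 34.3% of abundant genes), and 46 higher and 12 lower in 3T3-L1 (63.7%, beside 39.4% and 43.0%). Between 3T3-L1 and M27H4, 31 were called higher and 11 lower in 3T3-L1 (46.2%, beside 36.6% and 41.6%). No treatment gave a call in edgeR, with 6, 0 and 0 of the 91 at an unadjusted p under 0.05 in M6, M27H4 and 3T3-L1, beside 6.27%, 1.69% and 0.946% of all genes. Other ATF4 targets were called higher in 3T3-L1 than in M6 for 18 of 25 and lower for 3, and cytosolic aminoacyl-tRNA synthetases for 12 of 19 and 0. Kinases, sensors and eIF2 machinery were called higher for 6 of 18 and lower for 4. For other ER folding, translocation and degradation genes the counts were 10 of 29 and 5. Of all genes, 20.5% were called higher and 18.9% lower in that comparison. Cth, which makes cysteine from cystathionine, had means of 1.98, 11.4 and 132.2 CPM in M6, M27H4 and 3T3-L1 controls (6.03 ± 0.30 between 3T3-L1 and M6, adjusted p = 1.56e-08). Slc38a1, a glutamine carrier, was instead lowest in M27H4, at means of 14.5, 0.275 and 16.4 CPM (-5.63 ± 0.43 between M27H4 and M6, 5.68e-07). Eif2ak3, which encodes the sensor kinase PERK, stood in the opposite order to Atf4, at means of 97, 56.5 and 20.6 CPM (-2.23 ± 0.18 between 3T3-L1 and M6, 6.46e-07). Ern1, which encodes IRE1, was highest in M27H4, the line with the least Xbp1, at means of 26.4, 75.5 and 22.1 CPM. In the M6 knockdown the smallest p values were those of Sec24d (0.85, 0.164), a coat protein of vesicles leaving the ER, and Sesn2 (0.99, 0.216), a stress-induced inhibitor of mTORC1.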

How the data were processed

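Gene and transcript abundance was measured by RNA-seq in 21 columns of 14 replicates in 6 groups. The deposited gene table holds expected counts as whole numbers, and the authors' tools were cutadapt, HISAT2, StringTie and edgeR on mm10/GRCm38, per the submitters' processing notes. The annotation release and strand setting of the counting are not given in the sources used here, so genes that share exonic bases with a gene on the other strand are uncertain. Of the 40 genes, 12 share exonic bases with another gene and 3 of them at least 10% (Aldh1l2, Hsp90b1 and Psph). Deposited CPM tables were not used; 1 column in each matched no sample. Technical replicates were summed. Symbols came from GENCODE M21, which matched 48058 of 48440 identifiers; it lists a second Ddit3 identifier, which was not used. Counts were tested in edgeR 4.0.16 (R 4.3.3) with filterByExpr, TMM factors (0.941 to 1.08) and robust quasi-likelihood fits over all groups (8 residual degrees of freedom), with Benjamini-Hochberg adjustment over 21237 genes. CPM values of replicates use these factors. Those of single technical replicates, and the log2 values within run codes, use total counts without the factors. The test was also run on counts simulated with independent replicates, which gives no check on replicates that share run codes. Alternatives used DESeq2 1.42.0, limma 3.58.1 voom, other filters and factors, a replicate block and single replicates left out. The labels call replicates biological without naming separate cultures, so p-values measure the spread between these samples. Same-numbered replicates of a line share run codes, except that M6 replicate 2 shares only 1 of its codes between knockdown and control, and their deviations from the group means correlated (0.334 in M6, 0.24 to 0.353 in M27H4, 0.245 in 3T3-L1), so they were treated as paired in the block. The members and lists were chosen with earlier results of these data known. Statistics were given in each comparison for up to 14 called members with the largest change, for the members with the smallest p up to 5 where fewer were called, and always for Atf4, Ddit3, Asns, Xbp1 and Hspa5. Other called members, named with their values, were added after these were seen. Of the other pathway genes, up to 4 per direction and line comparison and 2 per treatment qualified, and those named are a selection. The values within the run codes that hold controls of all 3 lines were added after seeing the data.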

Additional observations from a re-analysis of the deposited data

How the results depend on the processing

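Members called numbered 16 to 25 between M27H4 and M6, 20 to 25 between 3T3-L1 and M6 and 11 to 13 between 3T3-L1 and M27H4 when single replicates were left out. The lowest value, 16, came without M6 control replicate 1. With the replicate block they were 27, 26 and 20: the block lost only Atf3 (M27H4 against M6) and added Cebpg, Hspa5, Ppp1r15a, Sars and Shmt2 (M27H4 against M6), Dnajb11, Manf, Sdf2l1 and Shmt2 (3T3-L1 against M6), and Dnajb11, Mthfd2, Pdia4, Ppp1r15a and Pycr1 (3T3-L1 against M27H4), and it changed no other call of the 40 genes. Of the 23, 22 and 15 calls, 15, 18 and 10 were made in every fit that was run. Atf3 between M27H4 and M6 turned to 0.08 without M6 control replicate 1 and was -2.67 without M6 control replicate 2. It was 0.25 within the run codes that hold controls of all 3 lines, and the cause was not tested. For the treatments no member was called under any alternative, except 1 (Hyou1) in the M6 knockdown with columns as libraries and a run code term. Genes called among all genes were 29 in the M6 knockdown, 235 by DESeq2, 928 with the run code term, 64 by limma voom, 64 without the filter, 0 with only the M6 libraries, 293 with the replicate block and 6 to 60 with a replicate left out. For M27H4 overexpression they were 2, against 6 by DESeq2, 1 with the run code term, voom, only those groups or the block, and 1 to 2 with a replicate left out. For 3T3-L1 they were 1, against 12 by DESeq2, 2 with the run code term or no filter, 3 by voom, 4 with only those groups, 0 with the block and 0 to 5 with a replicate left out. Other scalings moved the median of all genes to at most 0.06. Groups of 2 or 3 replicates limit the treatment comparisons.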
